A study of Danio rerio with 10 samples.

Results

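The macrophage and microglia genes described here are 10 genes of zebrafish whose RNA was counted in whole larvae at 3 days post fertilization (dpf). They were taken by gene name from the Ensembl release 96 annotation deposited with the counts, and each name matched 1 of the 25911 rows of the count table. Of these, apoeb, slc7a7 and p2ry12 stand for microglia, and mpeg1.1, marco, mfap4, csf1ra, csf1rb, lgals3bpb and spi1b stand for macrophages in general. All 10 passed the filter on low counts that left 23039 genes for testing. The study set homozygous can4-/- larvae, which carry a loss-of-function mutation in top2a, against wild-type (WT) larvae, both from incrosses of can4+/- parents on the AB background. Each genotype had 5 pools, and each pool combined RNA of 9 larvae that had been lysed and genotyped one by one. All larvae were taken at 3 dpf and measured whole. Since top2a mRNA supplied by the mother may persist for days, can4-/- larvae model a partial loss of Top2a, and homozygotes do not survive.

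Macrophages of the early zebrafish larva spread through the tissues and engulf dying cells and microbes. Some enter the brain and the retina and become microglia, the resident phagocytes that clear dying neurons. The transcription factor Pu.1 (spi1b) starts the myeloid program, and the receptor tyrosine kinases Csf1ra and Csf1rb, bound by the ligands Csf1a, Csf1b and Il34, keep these cells alive and guide them. Several of the genes are also used elsewhere: csf1ra in yellow pigment cells (xanthophores), apoeb in the yolk syncytial layer that exports yolk lipid, and slc7a7 in absorptive epithelia.

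The total count was 30098991 to 38106622 per can4-/- pool and 29281449 to 45544046 per WT pool. The targeted gene top2a had 675, 1358, 656, 635 and 688 normalized counts in can4-/- replicates 1 to 5, against 9083, 8498, 8646, 8532 and 8498 in WT replicates 1 to 5. Normalized counts are raw counts rescaled to the average library, with library sizes corrected by the TMM factors of edgeR. The can4-/- replicate 2 pool stood apart from the other mutant pools in its nearness to WT. Among 4743 genes changed at least 2-fold, it was the mutant pool nearest to WT in 46.0%, against 9.74% to 19.4% for each other one. Its top2a count was also the highest of the mutant pools, and whether it held RNA of a larva of another genotype was not tested, so the mutant means and SDs that include it carry this doubt. It was the highest of the 5 mutant pools in 7 of the 10 macrophage and microglia genes: nearest to WT for csf1rb and lgals3bpb, and farthest from WT for mpeg1.1, csf1ra, spi1b, mfap4 and p2ry12. The log2 fold changes of the 10 genes are therefore given with and without it.

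Of the 10 genes, 7 were higher in can4-/- larvae, 2 were lower and 1 had no call, at a Benjamini-Hochberg adjusted p under 0.05 from edgeR's quasi-likelihood test. The counts were the same without can4-/- replicate 2. Changes were common in these larvae, with 73.2% of all tested genes called, 36.3% higher and 36.9% lower. The pools of the genotypes did not overlap at all in 8 of the 10 genes, 6 of them higher and 2 lower, against 60.8% of all tested genes, 29.4% higher and 31.4% lower. With library totals in place of TMM, 5 of the 10 genes were higher and 2 lower, and over all genes 5919 were higher and 10997 lower, against 8356 higher and 8505 lower with TMM. The median log2 fold change was 0.55 over the 10 genes and 0.0027 over all tested genes. Library totals shifted all log2 fold changes by a median of -0.17, but none of the 10 genes changed direction. In whole larvae, fewer cells of a type and less RNA per cell cannot be told apart.

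**Figure D1:**
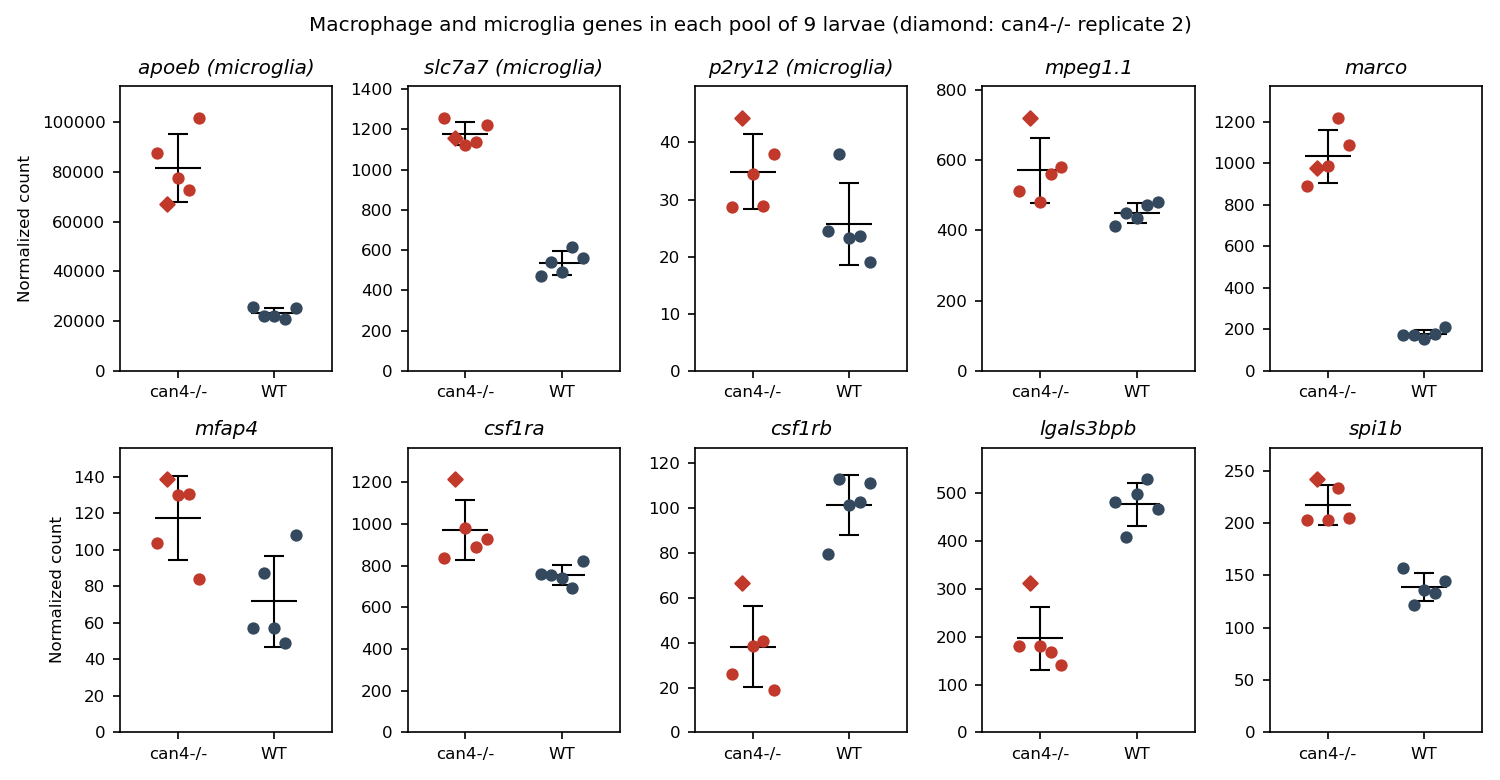
Normalized count (vertical axis, starting at 0) of each macrophage or microglia gene in the 5 can4-/- pools (red, left) and the 5 WT pools (dark blue, right) of 9 larvae. Points are pools, the diamond is can4-/- replicate 2, and bars are the mean and SD. The genotypes are far apart for apoeb, slc7a7 and marco (higher in can4-/-). They do not overlap for csf1rb and lgals3bpb (lower), and they overlap for p2ry12 and mfap4.

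Of the 3 microglia genes, 2 were called and 1 was not, where 73.2% of all tested genes were called. The apolipoprotein gene apoeb and the amino acid transporter gene slc7a7 did not overlap between the genotypes and were higher in can4-/-, while p2ry12, which encodes the ADP receptor by which microglia sense injured neurons, overlapped. The median log2 fold change was 1.14 over these 3 genes and 0.37 over the 7 general macrophage genes, whose values ran from -1.38 for csf1rb to 2.56 for marco.

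The gene apoeb (chromosome 16, 23960744 to 23963461 on GRCz11) had 87767, 67145, 77677, 72933 and 101852 normalized counts in can4-/- replicates 1 to 5, against 25642, 21994, 22278, 21077 and 25161 in WT replicates 1 to 5. The lowest mutant pool, replicate 2, was still far above the highest WT pool. This was a log2 fold change of 1.81 (standard error, SE, 0.099, 95% interval 1.60 to 2.02, edgeR adjusted p = 1.69e-09), or 3.51-fold. Without can4-/- replicate 2 it was 1.87 (edgeR adjusted p = 9.46e-10). The annotated span of apoeb overlaps nbn, a DNA repair gene on the same strand, whose means were 775 normalized counts in can4-/- and 719 in WT. The apoeb RNA of a whole larva includes that of the yolk syncytial layer, and of 14 lipoprotein genes tested, given further on, 9 were higher, 1 was lower and 4 had no call. Their part in the value of apoeb was not tested.

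For slc7a7 (chromosome 7, 19562045 to 19587542), which encodes the light chain of a cationic amino acid exchanger and is needed for microglia to form in zebrafish, the normalized counts were 1257, 1158, 1119, 1135 and 1222 in can4-/- replicates 1 to 5, against 469, 543, 491, 613 and 562 in WT replicates 1 to 5. The pools of each genotype lay close together and the genotypes were well apart. The log2 fold change was 1.14 (SE 0.069, edgeR adjusted p = 4.04e-09), or 2.2-fold, and 1.15 without can4-/- replicate 2. Its related light chain slc7a6 was higher as well, with 2039 ± 226 normalized counts in can4-/- and 1018 ± 75.3 in WT (SD, n = 5 pools each), a log2 fold change of 1.0 (SE 0.075, edgeR adjusted p = 3.33e-08). Of the 2 genes for the heavy chain with which these light chains pair, slc3a2a rose by 0.38 on the log2 scale (SE 0.049, edgeR adjusted p = 8.14e-06) and slc3a2b stood at 0.015 (SE 0.061, adjusted p = 0.832).

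Few reads fell on p2ry12 (chromosome 15, 1116664 to 1120421), with 23 to 46 raw counts in can4-/- pools and 17 to 39 in WT pools. Its normalized counts were 28.7, 44.3, 34.4, 28.9 and 37.9 in can4-/- replicates 1 to 5, against 24.5, 38.0, 23.2, 23.6 and 19.1 in WT replicates 1 to 5. Only WT replicate 2 reached into the range of the mutant pools. The estimate was a log2 fold change of 0.45 (SE 0.21, 95% interval -0.0085 to 0.90, edgeR adjusted p = 0.0714), and at this depth the interval held 0 as well as a rise of up to 0.90 on the log2 scale. Without WT replicate 2 it was 0.62 (edgeR adjusted p = 0.0127), and without can4-/- replicate 2 it was 0.34 (adjusted p = 0.186).

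Among the general macrophage genes, the scavenger receptor gene marco had the largest log2 fold change of the 10. Marco is a trimeric class A receptor by which macrophages bind bacteria and debris. The gene (chromosome 9, 795609 to 813693) had 891, 977, 986, 1219 and 1087 normalized counts in can4-/- replicates 1 to 5, against 171, 171, 154, 177 and 209 in WT replicates 1 to 5. Every mutant pool was several times above every WT pool. The difference was 2.56 on the log2 scale (SE 0.096, edgeR adjusted p = 5.96e-11), or 5.88-fold, and 2.58 without can4-/- replicate 2.

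The gene mpeg1.1, which encodes the pore-forming perforin-2 and is the standard marker of zebrafish macrophages, had a small difference. It lies on chromosome 8 from 29710110 to 29713621 and had 511, 721, 482, 560 and 581 normalized counts in can4-/- replicates 1 to 5, against 411, 449, 434, 473 and 481 in WT replicates 1 to 5. The lowest mutant pool and the highest WT pool all but touched, and replicate 2 was the highest mutant pool. The log2 fold change of 0.35 (SE 0.096, edgeR adjusted p = 0.00460) became 0.25 (adjusted p = 0.00699) without that pool and 0.18 (adjusted p = 0.134) with library totals. Its copy mpeg1.2 was higher as well, with 2816 ± 476 normalized counts in can4-/- and 1105 ± 221 in WT (SD, n = 5 pools each), a log2 fold change of 1.35 (SE 0.13, edgeR adjusted p = 4.71e-07). Reads may be shared between the 2 copies.

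The gene mfap4, which encodes a secreted fibrinogen-like glycoprotein and also marks zebrafish macrophages, lies on chromosome 1 from 59090583 to 59092056. It had 104, 139, 130, 131 and 84.1 normalized counts in can4-/- replicates 1 to 5, against 57.4, 87.6, 57.3, 49.2 and 108 in WT replicates 1 to 5. WT replicates 2 and 5 reached into the range of the mutant pools. The log2 fold change was 0.73 (SE 0.21, edgeR adjusted p = 0.00666) and 0.66 (adjusted p = 0.0179) without can4-/- replicate 2. The gene sits in a cluster of similar copies that may share reads, inside the span of si:zfos-2330d3.1 on the other strand. The annotation ties 15 genes of the table to human MFAP4, all on chromosome 1, of which 9 were tested. With mfap4 itself, 8 were higher in can4-/- larvae, none was lower and 1 had no call. Of all tested genes, 36.3% were higher, but the family counts cannot be weighed against that share. The copies may share reads and so are not separate observations. The copy FO203432.1 had so few counts in WT that it could pass the filter on low counts only through the mutant pools. The same holds for another of the higher copies, with means of 9.29 normalized counts in WT and 41.3 in can4-/-. This family was looked at after the value of mfap4 had been seen.

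The transcription factor gene spi1b (chromosome 7, 32644673 to 32659353) had 202, 242, 203, 234 and 205 normalized counts in can4-/- replicates 1 to 5, against 157, 122, 136, 133 and 145 in WT replicates 1 to 5. All mutant pools were above all WT pools. The log2 fold change of spi1b was 0.65 (SE 0.094, edgeR adjusted p = 2.43e-05), and 0.61 (adjusted p = 8.52e-05) without can4-/- replicate 2. Its span overlaps si:ch73-314g15.3 on the other strand, which had a log2 fold change of 0.31. The copy spi1a, also a Pu.1 gene, had 224 ± 29.8 normalized counts in can4-/- and 154 ± 12.5 in WT (SD, n = 5 pools each), a log2 fold change of 0.55 (SE 0.10, edgeR adjusted p = 0.000270).

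The 2 copies of the CSF1 receptor gene went apart. Csf1ra serves macrophages and is also needed by xanthophores, while Csf1rb is tied to blood cells and to later microglia. The gene csf1ra (chromosome 14, 3143337 to 3180947) had 839, 1215, 982, 892 and 930 normalized counts in can4-/- replicates 1 to 5, against 761, 756, 741, 693 and 823 in WT replicates 1 to 5. The genotypes were close but did not overlap. Their log2 fold change was 0.37 (SE 0.087, edgeR adjusted p = 0.00168), 0.27 (adjusted p = 0.00120) without can4-/- replicate 2 and 0.19 (adjusted p = 0.0704) with library totals.

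The gene csf1rb (chromosome 21, 43854594 to 43877428) had 26.2, 66.5, 38.7, 40.7 and 18.9 normalized counts in can4-/- replicates 1 to 5, against 79.4, 113, 102, 103 and 111 in WT replicates 1 to 5. Every mutant pool was below every WT pool, and replicate 2 was the mutant pool nearest to WT. The log2 fold change was -1.38 (SE 0.24, edgeR adjusted p = 0.000162), and WT stood 2.59-fold above can4-/-. Without can4-/- replicate 2 it was -1.68 (adjusted p = 6.86e-06).

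The other gene that fell was lgals3bpb (chromosome 3, 57741933 to 57744323), which encodes a secreted glycoprotein that binds galectins and is expressed in zebrafish macrophages. It had 180, 312, 180, 168 and 141 normalized counts in can4-/- replicates 1 to 5, against 482, 408, 498, 529 and 468 in WT replicates 1 to 5. Here too replicate 2 was the mutant pool nearest to WT, well above the other 4. Its log2 fold change was -1.27 (SE 0.17, edgeR adjusted p = 9.08e-06), and -1.51 (adjusted p = 1.37e-08) without that pool. The copy lgals3bpa was lower too, at few counts, with 14.5 ± 2.99 normalized counts in can4-/- and 26.7 ± 8.09 in WT (SD, n = 5 pools each), a log2 fold change of -0.86 (SE 0.25, edgeR adjusted p = 0.00621). A filter that asked for 50 or more counts in all pools of 1 genotype left lgals3bpa out.

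**Figure D2:**
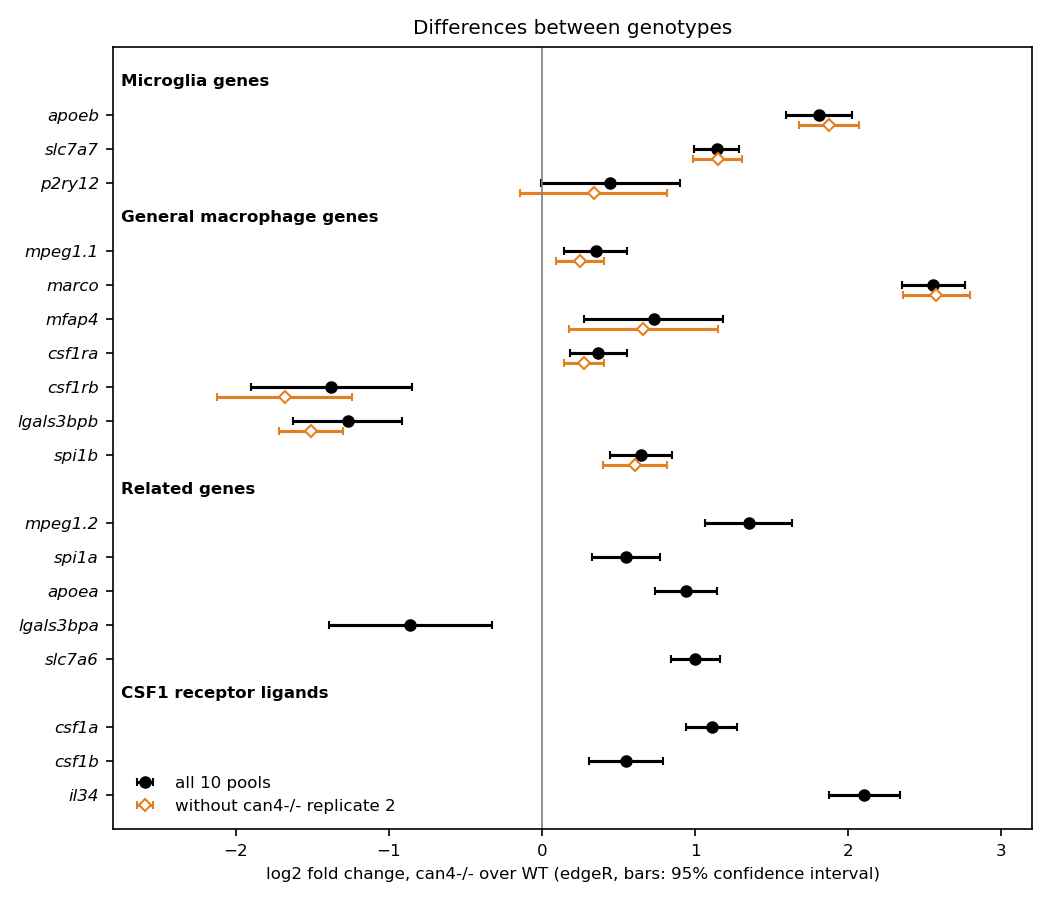
Log2 fold change of can4-/- over WT from edgeR (horizontal axis, bars are 95% confidence intervals) for the microglia genes, the general macrophage genes, related genes and the CSF1 receptor ligands. Filled circles use all 10 pools and open diamonds leave out can4-/- replicate 2, given for the 10 macrophage and microglia genes. The genes csf1rb and lgals3bpb lie left of 0, marco lies farthest to the right at 2.56, and the interval of p2ry12 crosses 0.

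Because a ratio of 2 genes within a pool does not depend on how libraries are scaled, 6 pairs were compared as log2 ratios of raw counts, each with a two-sided exact permutation test over the 10 pools and Benjamini-Hochberg adjustment over the 6 pairs. The first 3 pairs set each microglia gene against mpeg1.1. The ratio of slc7a7 to mpeg1.1 was 1.06 ± 0.24 in can4-/- and 0.25 ± 0.080 in WT (SD, n = 5 pools each), a difference of 0.81 that held in all 5 mutant pools against all 5 WT pools (exact p = 0.00794, adjusted p = 0.0119). For apoeb over mpeg1.1 the ratio was 7.15 ± 0.38 in can4-/- and 5.69 ± 0.18 in WT, a difference of 1.47 (exact p = 0.00794, adjusted p = 0.0119). Both were lowest among the mutant pools in replicate 2, at 0.68 and 6.54. The ratio of p2ry12 to mpeg1.1 was -4.02 ± 0.18 in can4-/- and -4.14 ± 0.39 in WT, and the difference of 0.12 was within the spread between pools (exact p = 0.548, adjusted p = 0.548). Over these pairs, p2ry12 was not resolved from mpeg1.1, whereas apoeb and slc7a7 each rose relative to it. This holds for mpeg1.1 only, whose log2 fold change was 0.35. That of marco, at 2.56, was above those of apoeb (1.81) and slc7a7 (1.14), and that of mpeg1.2, at 1.35, was above that of slc7a7. Ratios to other macrophage genes were not tested. The exact p of 0.00794 is the smallest that 5 pools against 5 allow.

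The other 3 pairs set copies of 1 gene against each other. The ratio of csf1ra to csf1rb was 4.76 ± 0.54 in can4-/- and 2.90 ± 0.21 in WT (SD, n = 5 pools each). The difference was 1.86, or 3.64-fold (exact p = 0.00794, adjusted p = 0.0119), and 2.01 without can4-/- replicate 2. Every mutant pool was above every WT pool for csf1ra and below every WT pool for csf1rb. The exact p of their ratio was fixed by those values and adds no support to them. For apoeb over apoea the ratio was 0.40 ± 0.18 in can4-/- and -0.47 ± 0.045 in WT, a difference of 0.87 (exact p = 0.00794, adjusted p = 0.0119). The copies of Pu.1 were not resolved from each other, since spi1b over spi1a was -0.035 ± 0.24 in can4-/- and -0.15 ± 0.18 in WT, a difference of 0.11 (exact p = 0.437, adjusted p = 0.524).

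**Figure D3:**
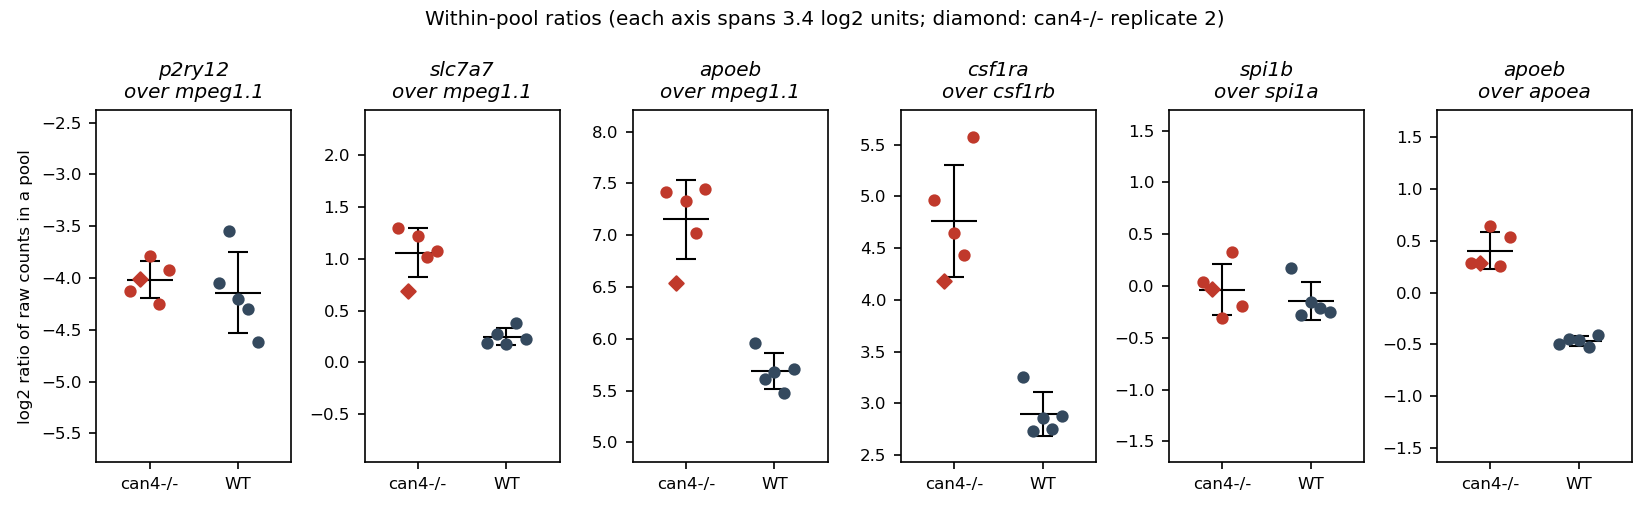
Log2 ratio of raw counts of 2 genes (vertical axis, the same length of 3.4 log2 units in every panel) in the 5 can4-/- pools (red, left) and the 5 WT pools (dark blue, right). Points are pools, the diamond is can4-/- replicate 2, and bars are the mean and SD. The genotypes separate for slc7a7 and apoeb over mpeg1.1, csf1ra over csf1rb and apoeb over apoea, and they overlap for p2ry12 over mpeg1.1 and spi1b over spi1a.

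All 3 ligands of the CSF1 receptors were higher in can4-/- larvae, also without replicate 2. Of all tested genes, 36.3% were higher. The gene il34, whose product draws macrophages into the zebrafish brain, had 514, 356, 429, 388 and 494 normalized counts in can4-/- replicates 1 to 5, against 100.5, 98.3, 101, 108 and 97.8 in WT replicates 1 to 5. Its log2 fold change was 2.11 (SE 0.11, edgeR adjusted p = 8.20e-10), or 4.30-fold, with replicate 2 the lowest of the mutant pools. The growth factor gene csf1a had 494 ± 36.6 normalized counts in can4-/- and 230.0 ± 20.7 in WT (SD, n = 5 pools each), a log2 fold change of 1.11 (SE 0.077, edgeR adjusted p = 1.65e-08). For csf1b the means were 229.9 ± 24.9 in can4-/- and 157 ± 23.0 in WT, with a log2 fold change of 0.55 (SE 0.11, edgeR adjusted p = 0.000513).

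Transcription factors of blood and myeloid development split. Of 13 tested, 7 were higher, 5 were lower and 1 had no call by the same threshold, and the median log2 fold change was 0.26. The share called was 92.3%, against 73.2% of all tested genes. The gene irf8, which sets macrophage against neutrophil fate, had 374, 224, 290, 243 and 287 normalized counts in can4-/- replicates 1 to 5, against 87.8, 81.7, 86.3, 87.2 and 98.9 in WT replicates 1 to 5, a log2 fold change of 1.68 (SE 0.13). All mutant pools were well above all WT pools. The genes runx1 and cebpb, which act in blood stem cells and in myeloid and other tissues, rose by 1.77 (SE 0.17) and 1.68 (SE 0.13) on the log2 scale. On the other side, tal1, myb and gata2a, which serve blood progenitors and, for tal1 and gata2a, neurons of the spinal cord, stood at -1.58 (SE 0.063), -1.57 (SE 0.093) and -0.87 (SE 0.14).

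Of 23 other macrophage genes tested, 14 were higher, 2 were lower and 7 had no call, with a median log2 fold change of 1.12. The share called was 69.6%, against 73.2% of all tested genes. With library totals 5 of the 23 were lower. The largest increases were those of the cytokine gene il1b at 3.26 (SE 0.38), the cathepsin S gene ctss2.1 at 2.42 (SE 0.071) and acod1, the itaconate-making enzyme of activated macrophages, at 2.22 (SE 0.20). By pool, il1b had 317, 67.5, 172, 113 and 154 normalized counts in can4-/- replicates 1 to 5, against 13.5, 18.5, 16.7, 16.4 and 20.2 in WT replicates 1 to 5, so that the mutant pools differed widely and replicate 2 was the lowest. The antigen-presentation gene mhc2dab was lower, at -1.71 (SE 0.25), as was timd4 at few counts, at -1.08 (SE 0.16). Those without a call were c1qa (-0.53), c1qb (-0.41), c1qc (-0.25), cd74b (-0.38), cxcr3.2 (-0.33), havcr2 (-0.34) and cd74a (0.55). The summed level of the list was 281 to 335 CPM in can4-/- pools and 132 to 153 CPM in WT pools. Here and below, CPM are counts scaled to a library of 1000000, with library sizes corrected by the TMM factors. The genes with the highest counts in the summed level of the list were mpeg1.2, mrc1a and mrc1b. Their mean normalized counts were 2816, 2259 and 1449 in can4-/- and 1105, 1467 and 590 in WT. In which cells of the larva this RNA was made was not tested.

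Among 18 other genes expressed in or needed for microglia, 10 were higher, 3 were lower and 5 had no call. The share called was 72.2%, against 73.2% of all tested genes. The list had a median log2 fold change of 0.28, and 5 of its genes were lower with library totals. The galectin gene lgals9l1 rose by 2.16 (SE 0.13), the transporter gene slco2b1 by 1.67 (SE 0.056) and the transcription factor gene sall1b by 1.52 (SE 0.10) on the log2 scale. The chemokine gene ccl34b.1, a marker of zebrafish microglia, went the other way. It had 16.2, 57.8, 26.9, 21.4 and 14.2 normalized counts in can4-/- replicates 1 to 5, against 144, 163, 173, 189 and 174 in WT replicates 1 to 5. No pools overlapped and replicate 2 was the mutant pool nearest to WT. For ccl34b.1 the log2 fold change was -2.57 (SE 0.27, edgeR adjusted p = 9.04e-07) and -3.07 without that pool. The genes tmem119a and sall1a were also lower, at -0.90 (SE 0.21) and -0.56 (SE 0.062). The Sall1 genes are also expressed in many other tissues. The list held 24 symbols, of which 18 were found, in 19 rows of the count table. The symbols trem2, p2ry13, p2ry6, gpr34a, gpr34b and cx3cr1 were not found, and tyrobp did not pass the filter on low counts. The list shares mertka with the engulfment genes and apoc1 with the lipoprotein genes. In which cells of the larva the RNA of these genes was made was not tested.

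Genes expressed in leukocytes in general were read in the same pools. Of 16 tested (56% called, against 73.2% of all tested genes), 8 were higher, 1 was lower and 7 had no call. The list had a median log2 fold change of 0.27. With library totals in place of TMM, 3 were higher and 4 lower, and without can4-/- replicate 2 or WT replicate 2 there were 2 lower. The NADPH oxidase subunit gene cyba led at 1.37 (SE 0.075), followed by the actin regulator gene arpc1b at 0.54 (SE 0.041) and the leukocyte migration gene rac2 at 0.49 (SE 0.039). The gene that fell was lcp1, which encodes L-plastin, with 415 ± 51.8 normalized counts in can4-/- and 517 ± 40.0 in WT (SD, n = 5 pools each), a log2 fold change of -0.31 (SE 0.084, edgeR adjusted p = 0.00400). The pan-leukocyte phosphatase gene ptprc rose by 0.30 on the log2 scale (SE 0.12, adjusted p = 0.0323), and coro1a stood at -0.079 (SE 0.087, adjusted p = 0.426). The summed level of the list was 217 to 224 CPM in can4-/- pools and 157 to 173 CPM in WT pools. Most of the difference between these sums lay in arpc1b, rac2 and cyba. Their mean normalized counts were 2392, 1744 and 1109 in can4-/- and 1649, 1242 and 427 in WT. In which cells the RNA of these genes was made was not tested.

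Receptors, bridging ligands and signaling genes of engulfment, which phagocytes use to take up dying cells, moved both ways. Of 18 tested, 9 were higher, 7 were lower and 2 had no call, with a median log2 fold change of 0.16. The share called was 88.9%, against 73.2% of all tested genes, which also moved both ways (36.3% higher and 36.9% lower). The receptor kinase gene mertka and its ligand gene gas6 stood at 1.29 (SE 0.098) and 1.38 (SE 0.087), and the scavenger receptor gene colec12 at 1.31 (SE 0.051). The genes adgrb1a, elmo1 and mfge8a were lower, at -1.11 (SE 0.055), -0.77 (SE 0.047) and -0.73 (SE 0.074). In mammals Adgrb1 is abundant in neurons as well as a receptor of phagocytes.

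**Figure D4:**
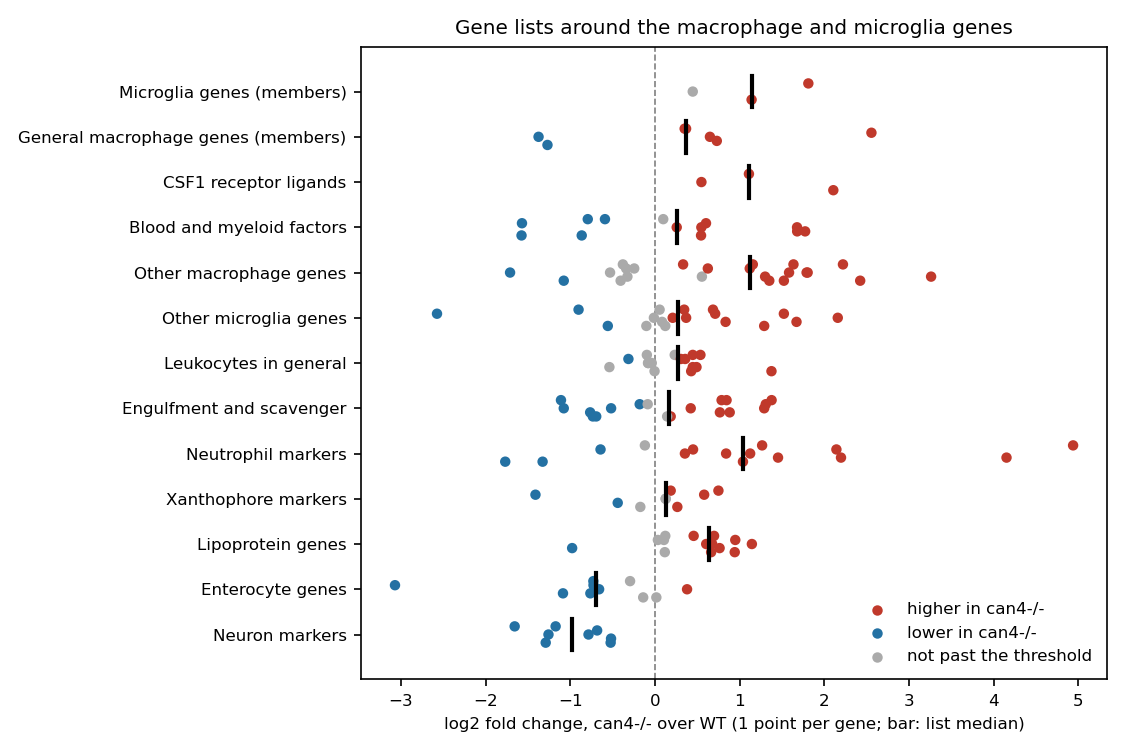
Log2 fold change of can4-/- over WT (horizontal axis) for each tested gene (points) of the gene lists (rows). Red points were higher, blue points lower and grey points were not called by edgeR at an adjusted p of 0.05, the black bar is the median of the list and the dashed line the median of all tested genes. Other macrophage genes have a median of 1.12, genes of leukocytes in general 0.27 and neuron markers -0.98.

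Markers of the other cells that use these genes were read in the same pools. The share called was 71.4% of lipoprotein genes, 66.7% of xanthophore markers, 70% of enterocyte genes and 100% of neuron markers. Over all tested genes it was 73.2%. The 14 tested lipoprotein genes of the yolk syncytial layer, liver and gut, which bear on apoeb, had 9 higher, 1 lower and 4 not passing, a median log2 fold change of 0.63 and a summed level of 32313 to 38731 CPM in can4-/- pools, against 18081 to 22488 CPM in WT pools. The gene with the highest counts in this sum was apobb.1, with means of 599541 normalized counts in can4-/- and 310904 in WT. The related apolipoprotein gene apoea rose by 0.94 (SE 0.093), apobb.1 by 0.95 (SE 0.074) and apoa4b.1 by 0.76 (SE 0.061), while apobb.2 stood at -0.98 (SE 0.12). The log2 fold change of apoeb was 1.81, and its ratio to apoea within pools is given above. The part of the yolk syncytial layer, liver and gut in the value of apoeb was not tested.

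For csf1ra, the 9 xanthophore markers had 4 higher, 2 lower and 3 not passing, with a median log2 fold change of 0.13 and a summed level of 370.1 to 461 CPM in can4-/- pools, against 311 to 366 CPM in WT pools. The pigment synthesis genes aox5, xdh and gch2 rose by 0.75 (SE 0.055), 0.58 (SE 0.13) and 0.26 (SE 0.095), the last losing its call with library totals, under which 2 markers were higher, as without WT replicate 3 or can4-/- replicate 5, and the transcription factor genes pax7a and pax7b, which also serve the nervous system, stood at -1.41 (SE 0.095) and -0.44 (SE 0.11). For slc7a7, the 10 enterocyte and transporter genes had 1 higher, 6 lower and 3 not passing, with a median of -0.69 and a summed level of 446 to 535 CPM in can4-/- pools, against 457 to 604 CPM in WT pools. The lower ones include the bile acid binding protein gene fabp6 at -3.07 (SE 0.24), the brush border gene vil1 at -1.09 (SE 0.20) and the peptide transporter gene slc15a1b at -0.76 (SE 0.29), which had no call with limma voom. All 8 neuron markers were lower, with a median of -0.98 and a summed level of 744 to 858 CPM in can4-/- pools, against 1609 to 1706 CPM in WT pools; among them snap25b stood at -1.66 (SE 0.053), syt1a at -1.29 (SE 0.055) and stmn1b at -1.26 (SE 0.052). The part of these cell types in the values of csf1ra, slc7a7 and the microglia genes was not tested.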

How the data were processed

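RNA of 10 pools (5 of can4-/- and 5 of WT larvae, 9 larvae each) was sequenced from libraries made with a stranded total RNA kit after rRNA removal. The authors aligned reads with STAR (version 2.7.0f and build GRCz11 in the submitters' processing notes) and deposited raw counts per gene. How reads were assigned to genes, and whether strand was used, is not given in these sources. Overlapping genes and close copies may therefore share reads. The deposited normalized counts, rlog values and the authors' fold changes and p-values were not used.

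The counts were tested with edgeR 4.0.16 in R 4.3.3. Genes passed filterByExpr (minimum count 10, minimum total 15), libraries were scaled by TMM, and the quasi-likelihood test had genotype as the only term, with Benjamini-Hochberg adjustment over 23039 genes. A standard error (SE) is the log2 fold change divided by the square root of F. The biological coefficient of variation was 9.59%. Within-pool ratios used raw counts plus 0.5 and exact permutation tests in SciPy 1.17.1. The fit was tested on simulated data. Chi-square per degree of freedom between pools of a genotype was 4.62 to 25.8, so each pool counted as 1 replicate. It was highest in the pairs with can4-/- replicate 4, at 18.4 to 25.8. Alternatives were DESeq2 1.42.0, limma 3.58.1 voom, RLE, library totals, other filters, a replicate block and leaving out each pool.

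The members and the gene lists were chosen with earlier results of these data known. Named are all members, top2a, all related genes and ligands, and per list up to 3 increases and 3 decreases past the threshold with a mean normalized count of at least 50. The genes slc3a2b, ptprc, coro1a and those overlapping a member were named after their values were seen. So were timd4, mrc1a, mrc1b, cxcr1, illr4, tyrobp, apoc1 and the other macrophage genes without a call. Symbols with more than 1 Ensembl gene were counted but not named. Counting error and the spread between pools both enter the p-values.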

Additional observations from a re-analysis of the deposited data

Results flagged for a closer look

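Values far from the other 4 pools of their genotype (a gap above Dixon's 95% limit) were found in 6 of 50 groups of 5 pools, where chance gives about 1 in 20. The normalized count of top2a was highest in can4-/- replicate 2, at 1358, and among WT pools in replicate 1, at 9083. In can4-/- replicate 2, lgals3bpb stood at 312 normalized counts. In WT replicate 2, p2ry12 stood at 38.0 normalized counts. WT replicate 1 had the highest log2 ratio of csf1ra to csf1rb among WT pools, at 3.26, and of spi1b to spi1a, at 0.17.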

How the results depend on the processing

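None of the 10 macrophage and microglia genes and 6 within-pool ratios changed direction under any alternative run. With library totals, mpeg1.1 (0.18) and csf1ra (0.19) no longer passed, and the counts were 5 lower for other macrophage genes, 5 lower for other microglia genes, 3 higher and 4 lower for leukocytes in general, and 2 higher for xanthophores. Leukocyte genes counted 2 lower with DESeq2, limma voom and the replicate block. When 50 or more counts were required in all pools of 1 genotype, 0 related genes were lower and p2ry12 was not tested. Leaving out 1 pool gave 0.34 to 0.62 for p2ry12, which passed only without WT replicate 2, 1 to 2 lower leukocyte genes (2 without WT replicate 2 or can4-/- replicate 2), and 2 to 5 higher xanthophore markers (2 without WT replicate 3 or can4-/- replicate 5). The replicate numbers did not pair the pools (correlations of same-numbered deviations -0.022 to 0.033, and none best with its own number). With the replicate block, 8179 genes were higher and 8344 lower, and the paired ratios of slc7a7 (0.81) and apoeb (1.47) to mpeg1.1, csf1ra to csf1rb (1.86) and apoeb to apoea (0.87) had adjusted p = 0.0938 in the exact sign-flip permutation, since 5 pairs cannot go below 0.0625. The gene gch2 did not pass with library totals (0.091) or without any of WT replicate 3, WT replicate 4 and can4-/- replicate 5, and slc15a1b did not pass with limma voom or without any of 6 pools. Low counts limit p2ry12, lgals3bpa, csf1rb and ccl34b.1.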

Other observations

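Genes listed as neutrophil markers were measured in the same pools. Of 15 tested, 11 were higher in can4-/- larvae, 3 were lower and 1 had no call at an adjusted p of 0.05 in edgeR. The share called was 93.3%, against 73.2% of all tested genes. The genes cxcr1 and illr4, both among those higher, had few counts in WT, with means of 4.83 and 7.44 normalized counts. They could pass the filter on low counts only through the mutant pools. The share called in this list therefore cannot be weighed against that of all tested genes. The list had a median log2 fold change of 1.04 and a summed level of 969 to 1281 CPM in can4-/- pools, against 445 to 556 CPM in WT pools. Most of the difference between these sums lay in mmp9 and in cfl1l, whose means were 20459 normalized counts in can4-/- and 9392 in WT. In which cells the RNA of the listed genes was made was not tested. The metalloproteinase gene mmp9 had 9561 ± 1388 normalized counts in can4-/- and 313 ± 30.9 in WT (SD, n = 5 pools each), the proteoglycan gene srgn rose by 1.45 (SE 0.083) and the cofilin-like gene cfl1l by 1.12 (SE 0.057) on the log2 scale. The granule genes lyz, which encodes lysozyme, and npsn stood at -1.33 (SE 0.15) and -0.64 (SE 0.12), and the carboxypeptidase gene cpa5 at -1.77 (SE 0.25). The myeloperoxidase gene mpx, named after its value was seen, stood at 0.35 (SE 0.093).

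The genes csf1rb, lgals3bpb and ccl34b.1, singled out after their values were seen, were all lower in every can4-/- pool than in every WT pool, and in each the mutant pool nearest to WT was replicate 2. Both traits were common. Of all tested genes, 31.4% were lower without overlap. Among genes changed at least 2-fold, the mutant pool nearest to WT was replicate 2 in 46.0%. That pool also had the most top2a among the mutant pools, and the lowest values of il34, irf8 and il1b. For mpeg1.1 (721 normalized counts), csf1ra (1215), spi1b (242), mfap4 (139) and p2ry12 (44.3) it was instead the mutant pool farthest from WT.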
